A study of Glycine max with 16 samples.

Results

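Whole soybean seeds (seed coat and embryo) were compared between full maturity and the full green seed in plants that had not been stressed. The seeds at R8 (2 arrays) came from plants at full maturity, and the seeds at R6 (3 arrays) were full-sized and still green. These 5 of the 16 arrays of the series were taken by their labels for stage and environment, and no measured value entered the choice. Only the soybean probe sets of the Affymetrix Soybean Genome array were used, 37593 of the 61170 in the table. The cultivar in every group was MG/BR 46 (Conquista), which the study calls susceptible. Non-stressed plants stayed with free water in a polytunnel, where the average temperature during the vegetative phase was 24.7 °C. Beside them stood 2 arrays of non-stressed seeds at the beginning of maturity (R7), and 3 arrays each of stressed R8 and stressed R6 seeds. Stressed plants had been moved at R5.5 to a greenhouse with a day average of 39.5 °C and were watered only on wilting. Pots were pooled into biological replicates and seeds were sorted by colour after harvest, so that each array stands for a pool of many seeds of a chosen colour. A p-value here measures the spread between such pools.

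A legume seed first fills with reserves and then dries. During filling the embryo makes storage proteins, protease inhibitors and oil from sugars and amino acids that arrive through the seed coat. Its green tissue loses chlorophyll later, and the cells take up protective proteins and sugars that allow them to survive without water. The dry seed keeps a store of messenger RNA that is drawn on when it takes up water again. Between R6 and R8 a seed passes through the end of filling, the loss of green colour and the last drying.

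Most transcripts measured differed between the stages. Probe sets were kept if the mean log2 signal of any of the 6 conditions was over 3, and of these 19194, 62.8% were called changed, with 6236 higher (32.5%) and 5814 lower (30.3%) at R8 than at R6. A call asked for a 2-fold change and an adjusted p (limma, Benjamini-Hochberg) no higher than 0.05, and 85.7% had an unadjusted p no higher than 0.05. The R8 arrays lay above all R6 arrays in 48.5% of probe sets and below all of them in 42.8%, so that a gap between the stages was the common case. Falls were deeper than rises. Changes of at least 5 on the log2 scale numbered 89 upward and 480 downward. A signal of 3 was exceeded at both stages by 11659 probe sets, at R8 alone by 2862 and at R6 alone by 3547. The median log2 fold change was 0.15 over all probe sets, -0.36 over the 4364 genes that could be matched and -0.58 over the 697 genes with a name. Of the matched genes 59.1% were called, 21.7% higher and 37.4% lower. Of the named genes 66.6% were called, 23.1% higher and 43.5% lower, and the counts of gene groups below are to be read beside these shares. In bulk seed, fewer cells of a type and less RNA per cell cannot be told apart.

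**Figure D1:**
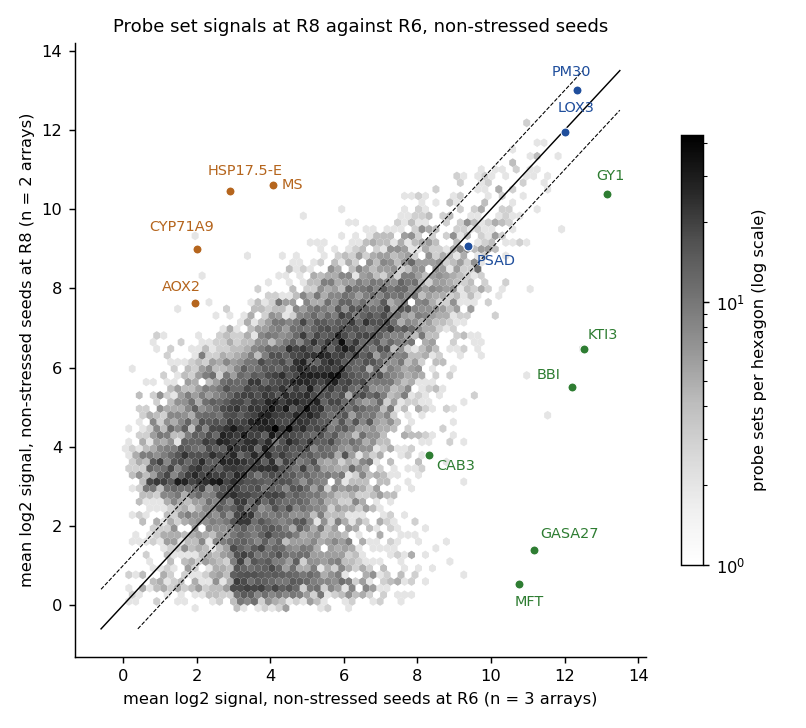
Mean log2 signal of 19194 soybean probe sets in non-stressed seeds at R8 (vertical axis, 2 arrays) against R6 (horizontal axis, 3 arrays), with shading by the number of probe sets, the diagonal as a solid line and a 2-fold difference as dashed lines. Named genes are orange where called higher at R8, green where called lower and blue where not called; MFT and GASA27 lie lowest on the right, with means of 0.54 and 1.39 at R8 against 10.75 and 11.18 at R6.

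The arrays of a stage were close to each other. Correlations across probe sets were 0.993 to 0.995 within a stage and 0.793 to 0.800 between stages, and the median SD within a stage was 0.15 on the log2 scale. From 14548 to 14578 soybean probe sets exceeded 3 at R8 and from 15113 to 15403 at R6. The probe sets of actin fell together, by 3.27 at the 3′ end and by 2.68 at the 5′ end. The excess of the 3′ over the 5′ signal of actin was 1.56 and 1.94 at R8 and 2.25 to 2.44 at R6. The 3′ signal of GAPDH was above its middle signal by 1.75 and 1.81 at R8 and by 0.45 to 0.53 at R6. These control transcripts did not keep 1 ratio between the stages, and the part of RNA quality in the results was not tested. Poly-A RNA spikes had a mean log2 signal of 6.02 and 6.16 at R8, against 5.16, 5.66 and 6.18 at R6. When arrays were centred on these spikes, a choice made after the data were seen, every change moved down by 0.42, and 4118 probe sets were called higher and 6448 lower. Rises then made up 39.0% of calls, against 51.8% with the values as deposited. Centring on the hybridization spikes moved the median to 0.30, with 6847 higher and 5407 lower. Where a named gene lost its call under the poly-A centring, this is therefore given below. Counts of a group are those with the values as deposited unless the centring is named.

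Transcripts of storage proteins fell at the end of maturation, and by very different amounts. Of 11 measured genes 10 were called lower and 1 was not called, with a median log2 fold change of -3.31, against -0.58 over all named genes. GY1 encodes a glycinin, a main 11S storage globulin. It stood at 11.17 and 9.61 at R8 and at 13.18, 13.14 and 13.14 at R6. Both R8 arrays were below all R6 arrays, and they differed from each other more than those of most genes. The log2 fold change was -2.76 ± 0.33 (SE, adjusted p = 1.4e-05), which became -3.54 without the first R8 array and -1.98 without the second. CG-BETA-1, a beta-conglycinin subunit, followed the same order, with 9.85 and 9.24 at R8 against 12.04, 11.93 and 12.06 at R6 (log2 fold change -2.47 ± 0.16, adjusted p = 1.2e-07). Both transcripts were still far above the background in the dry seed.

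Other reserve transcripts went much lower. BG7S-2, a basic 7S globulin, gave 4.99 and 4.73 at R8 and 11.57, 11.65 and 11.60 at R6. Its fall of 6.74 on the log2 scale (SE 0.12, adjusted p = 2.7e-11) equals 107-fold and is far outside the spread of either stage. A1, albumin-1, gave 2.94 and 3.70 at R8, against 11.25, 10.80 and 10.62 at R6 (log2 fold change -7.57 ± 0.44). GY5, another glycinin, gave 7.69 and 6.97 at R8, against 12.55, 12.52 and 12.55 at R6 (log2 fold change -5.21 ± 0.17). CG-1, a conglycinin gene, fell by 4.52 ± 0.28. Falls of glycinin genes thus spanned a wide range, and none of the R8 arrays of these genes reached an R6 array. The GY1 signal of 13.18 at R6 was the highest value on the 5 arrays. Whether signals near the top of the scale are compressed, for GY1 or for the strong transcripts below, was not tested. The single gene of the group that was not called was SBP2, a sucrose-binding protein of the same structural superfamily. It gave 10.98 and 10.78 at R8 and 11.56, 11.43 and 11.52 at R6 (log2 fold change -0.63 ± 0.10, adjusted p = 0.00019), which is under the 2-fold limit. Control probe sets of the array for a sucrose-binding protein changed by -1.14 at the 3′ end, -3.07 in the middle and -1.88 at the 5′ end. Glycinin, conglycinin and inhibitor genes form families with similar sequences, so that a probe set may also read a close relative.

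Protease inhibitors, which hold back digestive enzymes and store sulfur-rich protein, fell even further. Of 9 measured genes 7 were lower and 1 higher, and the median log2 fold change was -6.08. KTI3, the main Kunitz trypsin inhibitor of seeds, gave 6.60 and 6.32 at R8 and 12.56, 12.52 and 12.52 at R6, a fall of 67.5-fold (log2 fold change -6.08 ± 0.13, adjusted p = 6.7e-11). BBI, a Bowman-Birk inhibitor of trypsin and chymotrypsin, gave 5.49 and 5.55 at R8 and 12.21, 12.28 and 12.09 at R6 (log2 fold change -6.68 ± 0.15). D-II, a second Bowman-Birk inhibitor, gave 5.81 and 6.28 at R8, against 12.40, 12.50 and 12.47 at R6. In all 3 genes both R8 arrays were far below the R6 arrays, and the SD within a stage was 0.34 or less. The Kunitz genes KTI-2 and KTI-3 ended lower still, with means of 1.17 and 1.00 at R8, against 9.50 and 8.46 at R6. For KTI-3 the R8 signal was within the background, taken as 1.13, the level exceeded by 2.5% of the probe sets for other organisms. Its fall was at least 160-fold when computed from that level, and bounds of this kind are written below as "at least". BBI-1 went the other way. This inhibitor gene gave 7.68 and 8.16 at R8 and 4.08, 4.63 and 4.30 at R6, with no overlap and a log2 fold change of 3.59 ± 0.32 (adjusted p = 1.2e-06). A second probe set of BBI-1 rose by 3.39.

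**Figure D2:**
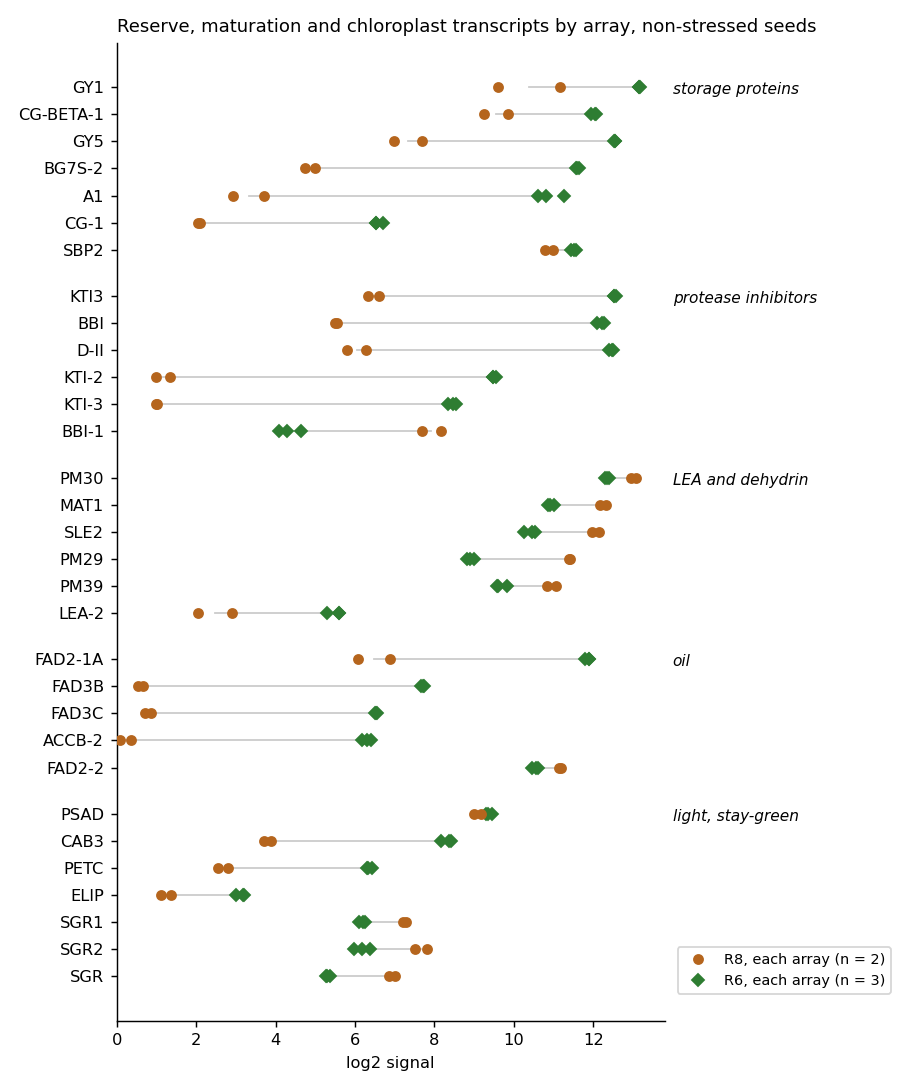
Log2 signal of each array (horizontal axis) for genes of storage, protection, oil and the chloroplast, with R8 arrays as orange circles (n = 2) and R6 arrays as green diamonds (n = 3). The circles lie left of the diamonds for all storage proteins shown and for all inhibitors except BBI-1 (means 7.92 at R8 and 4.34 at R6), and right of them for PM30, MAT1, SLE2, PM29 and PM39 and for the 3 stay-green genes.

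Late embryogenesis abundant (LEA) proteins and other seed maturation proteins, which protect membranes and proteins in dry cells, behaved unlike the reserves. Of 29 measured genes 7 rose, 1 fell and 21 were not called, and the median log2 fold change was 0.61. PM30 gave 12.95 and 13.07 at R8 and 12.29, 12.40 and 12.35 at R6. The stages did not overlap, but its change of 0.67 ± 0.10 on the log2 scale was below the 2-fold limit. SLE2, an Em-type LEA protein, rose by 1.65 ± 0.12 (adjusted p = 2.1e-07), with 11.97 and 12.15 at R8 and 10.46, 10.52 and 10.25 at R6. PM29 had the largest rise of the group, with 11.41 and 11.39 at R8 against 8.90, 8.99 and 8.82 at R6 (log2 fold change 2.50 ± 0.12). MAT1, a dehydrin outside this list, rose by 1.32 ± 0.12. The fall was that of LEA-2, with 2.06 and 2.90 at R8 and 5.59, 5.59 and 5.29 at R6. With the poly-A spikes centred only 2 of the 29 genes stayed higher and 2 were lower, and MAT1 and PM39 (log2 fold change 1.28 as deposited) were no longer called. The median of the group thus stayed within a 2-fold change, and that of the storage proteins did not.

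Genes of fatty acid and oil synthesis were lower in 12 of 16 cases, with the other 4 not called and a median log2 fold change of -2.34. FAD2-1A, the seed oleate desaturase that makes linoleic acid for storage oil, gave 6.89 and 6.08 at R8 and 11.78, 11.88 and 11.88 at R6 (log2 fold change -5.36 ± 0.20, adjusted p = 1.9e-09). FAD2-2, a desaturase of the same family that is used throughout the plant, gave 11.18 and 11.14 at R8, against 10.45, 10.60 and 10.56 at R6. The R8 arrays of FAD2-2 were above those of R6, by 0.62 ± 0.09 on the log2 scale, which is not called. FAD3B and FAD3C, which make linolenic acid in the endoplasmic reticulum, had means of 0.60 and 0.79 at R8, against 7.70 and 6.53 at R6, falls of at least 95.0-fold and 42.0-fold. ACCB-2, a biotin carrier of plastid acetyl-CoA carboxylase, the first step of fatty acid synthesis, fell at least 35.9-fold. In contrast, in a list made after the tables were opened, enzymes that make the galactolipids of plastid membranes were higher. Of 4 measured genes 3 rose, DGD1 by 1.40, MGD1 by 1.19 and DGD2 by 1.03 on the log2 scale, and none of the 3 calls held with the poly-A spikes centred.

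Sugar carriers were mostly lower. Of 11 genes of sucrose and sugar transport 6 were lower and 2 higher (median -2.16). With the poly-A spikes centred 6 were lower and 0 higher. SWEET24, a sugar exporter, gave 0.46 and 0.83 at R8 and 9.01, 8.56 and 8.37 at R6, a fall of at least 182-fold, and SWEET13 fell at least 40.9-fold. Both R8 arrays of each were in the background, so the R8 level itself was not measured. GBSSIa, a starch synthase bound to starch granules, had 3.40 and 3.17 at R8 against 8.19, 7.98 and 8.03 at R6 (log2 fold change -4.78 ± 0.28, and -2.05 in its other probe set). In the inositol pathway, which leads to phytate and to the raffinose sugars, 3 of 7 genes were lower and 2 higher. MIPS makes inositol phosphate in the first step, and gave 4.29 and 4.38 at R8 and 9.99, 9.88 and 9.94 at R6 (log2 fold change -5.60 ± 0.10, adjusted p = 3.5e-11). GOLS, galactinol synthase, which uses inositol for raffinose sugars, gave 10.14 and 10.27 at R8 and 8.44, 8.48 and 8.33 at R6 (log2 fold change 1.79 ± 0.10). ITPK2, an inositol phosphate kinase, rose by 2.31 ± 0.18. The first enzyme of the pathway was thus 48.5-fold lower while galactinol synthase was 3.45-fold higher, and the galactinol synthase call held under each of the alternatives tried, the poly-A centring among them.

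Transcripts of the photosynthetic apparatus were lower at R8. Of 4 genes of the light reactions 3 fell, and of 5 for carbon fixation and photorespiration 4 fell, and the others were not called. CAB3, a chlorophyll-binding protein of the light-harvesting antenna, gave 3.89 and 3.72 at R8 and 8.17, 8.37 and 8.42 at R6 (log2 fold change -4.52 ± 0.12, adjusted p = 2.5e-10). Further probe sets of CAB3 fell by 5.41 and 5.40, while another was not called, at -0.23. PETC, the Rieske protein of the cytochrome b6f complex, gave 2.80 and 2.55 at R8 and 6.31, 6.34 and 6.44 at R6. The exception depended on the probe set. PSAD, a photosystem I subunit, gave 8.99 and 9.17 at R8 and 9.45, 9.35 and 9.29 at R6 on the probe set that stands for it (log2 fold change -0.28, not called), but fell by 2.80 and 2.56 on its 2 others. ELIP, an early light-inducible protein, fell by 1.89 ± 0.19. RCAALPHA, a Rubisco activase, fell by 2.05 ± 0.14, and SHMT, serine hydroxymethyltransferase, which acts in photorespiration and in the supply of C1 units, fell by 2.32 ± 0.13.

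Genes for making and removing chlorophyll did not follow the antenna genes. The 3 measured genes of chlorophyll synthesis were not called. GSA1, which makes the precursor aminolevulinate, had means of 6.18 at R8 and 6.08 at R6 (adjusted p = 0.434, limma). HEMB had 5.50 at R8 and 5.43 at R6 (adjusted p = 0.656), and HEMG had 2.59 at R8 and 2.91 at R6 (adjusted p = 0.100). The 3 measured stay-green genes, which encode proteins that start the removal of chlorophyll from its protein complexes, were all higher at R8. SGR1 gave 7.29 and 7.21 at R8 and 6.19, 6.25 and 6.11 at R6 (log2 fold change 1.07 ± 0.13, adjusted p = 1.8e-05). SGR2 gave 7.50 and 7.81 at R8 and 6.37, 6.17 and 5.97 at R6 (log2 fold change 1.48 ± 0.21). SGR gave 7.01 and 6.86 at R8 and 5.26, 5.30 and 5.38 at R6 (log2 fold change 1.62 ± 0.19). In each case the stages were separate, but the rises were small. With the poly-A spikes centred only SGR remained called, and SGR1 also lost its call under a further quantile normalization.

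The seed coat surrounds the embryo and passes nutrients to it. Each of the 4 measured seed coat genes was lower at R8, with a median of -4.07. HPS, a hydrophobic protein of the seed surface, gave 1.57 and 1.54 at R8 and 9.71, 9.26 and 9.11 at R6 (log2 fold change -7.81 ± 0.28, adjusted p = 1.6e-09). SCB1, a BURP-domain protein of the seed coat, gave 0.47 and 0.40 at R8 and 6.02, 5.73 and 5.40 at R6, at least 23.9-fold lower. Ep, the seed coat peroxidase, was weak at both stages, with means of 0.21 at R8 and 2.14 at R6. LAR1, of proanthocyanidin synthesis, had means of 0.21 at R8 and 3.06 at R6. Seed coat markers as a whole moved towards the background with maturity, and the share of seed coat RNA in the sample was not measured, so its part in the results was not tested. Cell wall genes were lower in 6 of 9 cases and higher in 1. PRP3, a proline-rich wall protein, fell at least 65.3-fold, and EXP4, an expansin that loosens walls, at least 9.95-fold. The rise was that of the expansin EXP1, with 4.72 and 4.76 at R8 against 3.31, 3.65 and 2.96 at R6, a call that was lost with the poly-A spikes centred.

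Of 30 genes of phenylpropanoids, flavonoids and isoflavonoids 19 were lower and 5 higher, a median of -2.03. CHR5, a chalcone reductase of the isoflavonoid route, gave 0.40 and 0.01 at R8 and 7.93, 7.85 and 7.94 at R6, at least 109-fold lower. F3H, flavanone 3-hydroxylase of the anthocyanin route, was at least 105-fold lower, and the isoflavone reductase IFR1 at least 41.5-fold lower. CYP93E1, a P450 that oxidises triterpenes and not flavonoids, shares its family name with the isoflavonoid enzymes and is counted among the 30 genes. It was strong at R6 and fell by 5.16 ± 0.13. IF7MaT, which attaches malonyl groups to isoflavone glucosides, was among the rises and gave 8.62 and 8.41 at R8 and 4.63, 4.65 and 5.06 at R6 (log2 fold change 3.73 ± 0.15, adjusted p = 2.9e-09). CYP93A1, a P450 that leads to the glyceollin phytoalexins, gave 5.71 and 5.39 at R8 and 1.33, 1.97 and 1.11 at R6 (log2 fold change 4.08 ± 0.32). The group was thus split. Among the 15 P450 genes 7 rose and 6 fell, and with the poly-A spikes centred 4 rose and 7 fell. The largest rise of any P450 was that of CYP71A9, with 9.02 and 8.96 at R8 against 1.57, 2.47 and 2.02 at R6 (log2 fold change 6.97 ± 0.28, adjusted p = 3.2e-09), and CYP72A67 had the largest fall, at least 229-fold.

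**Figure D3:**
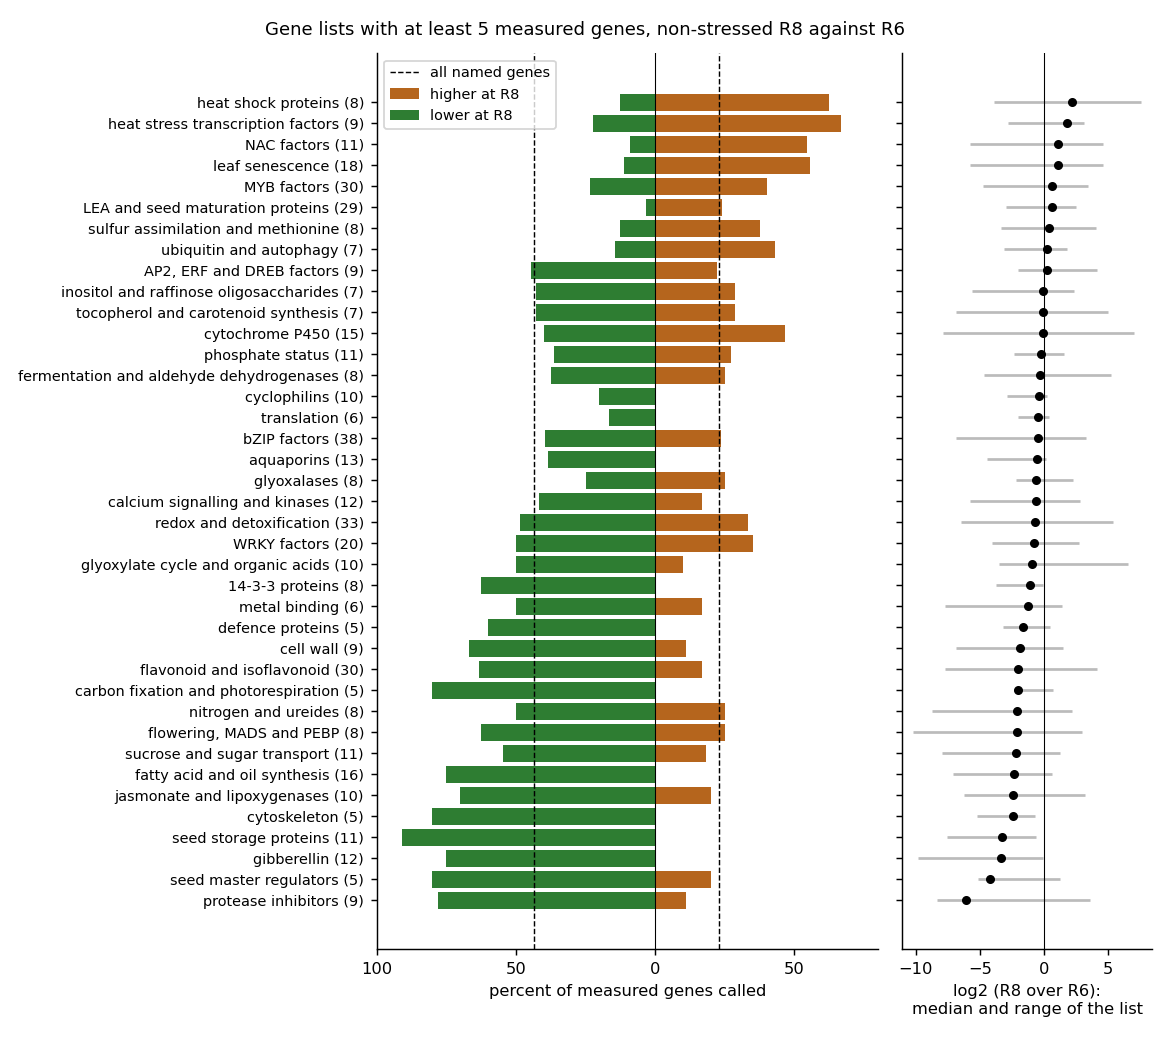
Share of the measured genes called higher (orange, to the right) and lower (green, to the left) at R8 than at R6 for lists with at least 5 measured genes (number in brackets), and beside it the median (point) and range (line) of the log2 fold change. Dashed lines mark the shares over all named genes, 23.1% higher and 43.5% lower; lists are ordered by their median, with heat shock proteins (median 2.15) at the top and protease inhibitors (median -6.08) at the bottom, and the medians of 6 lists near 0 changed sign under another scaling.

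Some of the deepest falls were in genes tied to hormones and germination. MFT, a protein of the phosphatidylethanolamine-binding family that acts on germination in Arabidopsis, was at the background at R8. It gave 0.48 and 0.59 at R8 and 10.69, 10.75 and 10.80 at R6, at least 782-fold lower (adjusted p = 1.6e-11). GASA genes encode small cysteine-rich peptides regulated by gibberellin, and of 12 genes of gibberellin metabolism and response 9 fell and 3 were not called (median -3.37). GASA12 gave 0.41 and 0.28 at R8 and 9.99, 10.21 and 10.26 at R6, at least 519-fold lower. GASA27 gave 1.28 and 1.51 at R8 and 11.16, 11.19 and 11.18 at R6, an 883-fold fall (log2 fold change -9.79 ± 0.11), and a second probe set was at least 364-fold lower. Among probe sets above the background at both stages this was the largest fall. GASA22 kept a measurable level, with means of 2.95 at R8 and 9.89 at R6. GAI1, a DELLA repressor of gibberellin signalling, was not called, with 5.74 and 5.88 at R8 and 5.79, 6.04 and 5.94 at R6 and overlapping arrays.

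Ethylene and jasmonate genes were called in both directions. ACS1, which makes the ethylene precursor, gave -0.32 and 0.07 at R8 and 6.80, 6.46 and 6.29 at R6, at least 41.7-fold lower. The ethylene receptor ETR2 fell by 3.78 ± 0.17, while EIN4, another receptor, rose by 2.92 ± 0.26. In the jasmonate and lipoxygenase group 7 of 10 genes were lower and 2 higher (median -2.43). The allene oxide cyclases AOC3 and AOC4, which close the ring of the jasmonate precursor, were at least 40.9-fold and 34.2-fold lower. COI1, the jasmonate receptor, rose by 3.19 ± 0.18, with 7.73 and 7.46 at R8 and 4.51, 4.45 and 4.26 at R6, and all 5 of its probe sets were called higher. AOS1, allene oxide synthase, rose by 1.55 ± 0.17, a call that did not hold with the poly-A spikes centred. The 3 seed lipoxygenases, which oxidise unsaturated fatty acids, parted. LOX1.1 gave 7.51 and 7.45 at R8, against 12.15, 12.04 and 12.07 at R6. LOX2 gave 6.02 and 6.15 at R8, against 11.63, 11.66 and 11.63 at R6. LOX3 gave 11.98 and 11.94 at R8 and 12.03, 11.97 and 12.06 at R6, and its log2 fold change of -0.06 ± 0.10 (adjusted p = 0.563) was within a small part of a 2-fold change. These 3 genes are close relatives, and probe sets of LOX3 could read the others as well.

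Auxin and abscisic acid were represented by few genes. ADR11, an auxin down-regulated gene, gave 2.61 and 2.56 at R8 and 11.32, 11.24 and 11.25 at R6, a 413-fold fall (log2 fold change -8.69 ± 0.14, adjusted p = 2.0e-11). TIR1C, an auxin receptor, rose by 2.09 ± 0.14. SPK-4, a kinase of the SnRK2 type to which abscisic acid signalling belongs, gave 5.07 and 4.94 at R8 and 2.11, 1.77 and 1.86 at R6 (log2 fold change 3.10 ± 0.20). It was the only rise among the 3 measured genes of the abscisic acid list, whose median was -0.78. The other 2 were not called as deposited and were called lower with the poly-A spikes centred. Receptors of jasmonate, auxin and ethylene (COI1, TIR1C and EIN4) were thus higher at R8, and ETR2 was lower.

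Regulators of embryo development went down. LEC1-A, a subunit of the NF-Y factor that drives filling, gave 0.06 and 0.25 at R8 and 5.30, 5.20 and 5.49 at R6, at least 18.3-fold lower (adjusted p = 2.2e-10). The NF-YA subunits NF-YA13 and NF-YA05 fell by 4.76 and 4.26 on the log2 scale. They belong to a list of 5 seed regulators, which also holds homeodomain proteins, with 4 lower and 1 higher. Among 38 bZIP factors 15 were lower and 9 higher. BZIP70 was at least 61.8-fold lower, with 0.08 and 0.29 at R8 against 7.05, 7.0 and 7.20 at R6, and BZIP89 rose by 3.25 ± 0.12. Of 20 WRKY factors 10 fell and 7 rose, with WRKY51 (-4.05 ± 0.26) and WRKY34 (at least 4.26-fold higher) at the ends. Their shares of lower genes, 39.5% and 50.0%, lay on either side of the 43.5% over all named genes. With the poly-A spikes centred 6 bZIP and 5 WRKY factors were higher.

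Rises were frequent among NAC and MYB factors. Of 11 NAC genes 6 were higher (54.5%) and 1 lower, and of 30 MYB genes 12 were higher (40.0%) and 7 lower, against 23.1% higher over all named genes. NAC51 gave 5.23 and 4.83 at R8 and 0.57, 0.26 and 0.41 at R6, at least 14.9-fold higher. NAC19 had 9.24 and 9.05 at R8 against 6.15, 6.54 and 6.56 at R6 (log2 fold change 2.73 ± 0.15). NAC14 was the gene that fell, by 5.82 on the probe set that stands for it and by 1.14 on the other. MYB79 rose by 3.42 ± 0.21, and MYB172 was at least 17.7-fold lower. With the poly-A spikes centred 4 NAC genes and 8 MYB genes remained higher. A list of leaf senescence genes, which shares the NAC and stay-green genes with the lists above, had 10 of 18 higher and 2 lower, and 6 higher after that centring. Among factors of the AP2 superfamily DREB2A2, which acts in heat and drought responses, had 9.84 and 9.82 at R8 and 5.74, 5.67 and 5.73 at R6 (log2 fold change 4.11 ± 0.12, adjusted p = 4.7e-10). ERF5 rose by 2.98 ± 0.29 and ERF6 fell by 2.02 ± 0.14, in a family with 2 of 9 higher and 4 lower.

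Heat shock transcripts were higher in mature seeds that had never been in the hot greenhouse. Of 8 measured heat shock proteins 5 rose and 1 fell (median 2.15), and of 9 heat stress transcription factors 6 rose and 2 fell (median 1.77). With the poly-A spikes centred 5 genes of each group were higher. HSP17.5-E, a small heat shock chaperone, had the largest rise among probe sets above the background at both stages. It gave 10.39 and 10.53 at R8 and 2.23, 3.03 and 3.47 at R6, a 187-fold difference (log2 fold change 7.55 ± 1.21, adjusted p = 0.00015). The SD was 0.09 at R8 and 0.63 at R6, and the larger standard error comes from the stressed arrays, which share the estimate of the spread. HSP90A1, a cytosolic HSP90, gave 9.95 and 9.72 at R8 and 4.97, 4.75 and 4.74 at R6 (log2 fold change 5.02 ± 1.05). SB100, an HSP101 that dissolves protein aggregates, gave 10.23 and 10.02 at R8 and 7.59, 7.63 and 7.62 at R6 (log2 fold change 2.51 ± 0.16). All R8 arrays of these genes were far above all R6 arrays. HSP22.5 was at least 9.38-fold higher. The gene that fell was BIP4, the HSP70 of the endoplasmic reticulum that folds secreted and storage proteins, with 4.08 and 3.79 at R8 against 7.79, 7.82 and 7.87 at R6 (log2 fold change -3.89 ± 0.12). PDIL-2, a protein disulfide isomerase of the same compartment, fell by 3.67 ± 0.24, in a list of 3 such isomerases with 2 lower and 1 higher. HSF-03 rose by 3.12 ± 0.11, HSF-14 by 2.38 ± 0.14 and HSF-15 by 2.21 ± 0.11. HSF-01 had no settled direction, since the probe set that stands for it fell by 2.82 and another was 2.33 higher.

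Transcripts of respiration outside the usual chain rose, and those of detoxification were called in both directions. All 3 measured alternative oxidases, which pass electrons to oxygen without making ATP, were higher at R8. This list was made after the tables were opened, and AOX1 and AOX2 were already among the 12 largest rises of named genes. AOX2 gave 7.62 and 7.63 at R8 and 2.25, 1.98 and 1.61 at R6 (log2 fold change 5.68 ± 0.26, adjusted p = 7.3e-09). AOX1 gave 4.57 and 4.88 at R8 and 0.50, 0.38 and -0.03 at R6, at least 12.1-fold higher. AOX3 rose by 1.28 ± 0.29, and that call was lost with the poly-A spikes centred. Of its other probe sets 1 rose by 1.40 and 1 was not called, at 0.72. In the larger group of redox and detoxification genes 11 of 33 were higher and 16 lower, and with the poly-A spikes centred 7 were higher and 16 lower. Glutathione transferases of the tau class conjugate glutathione to reactive compounds. GSTU42 gave 7.26 and 7.53 at R8 and 1.92, 1.90 and 2.36 at R6 (log2 fold change 5.33 ± 0.22), and GSTU62 rose by 4.49 ± 0.26. CAT4, a catalase, rose to 11.11 and 10.92 at R8, against 7.30, 7.46 and 7.31 at R6 (log2 fold change 3.65 ± 0.11). The iron superoxide dismutase gene SODB2 gave 1.28 and 1.17 at R8 and 7.81, 7.67 and 7.59 at R6, a fall of 6.46 ± 0.23. The peroxidase PRX3 and the dehydroascorbate reductase DHAR4 fell by 6.16 and 5.18 on the log2 scale. Aldehyde-metabolising genes AKR1 and ALDH3H1 were higher by 4.75 and 5.24, although the other probe set of ALDH3H1 was not called, at 0.03.

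Metal-binding and organic acid genes were called in both directions, with more falls than rises. The same held over all named genes, with 43.5% lower and 23.1% higher. Of 6 metal-binding genes 1 was higher and 3 were lower (median -1.23). Of 10 genes of the glyoxylate cycle and organic acids 1 was higher and 5 were lower (median -0.97). SFERH-2, a ferritin subunit, gave 1.36 and 2.62 at R8 and 9.72, 9.71 and 9.71 at R6 (log2 fold change -7.73 ± 0.27), and the change was -7.10 without the first and -8.36 without the second R8 array. SFERH-4, another ferritin subunit, gave 10.25 and 10.18 at R8 and 8.88, 8.95 and 8.78 at R6 (log2 fold change 1.35 ± 0.10, not called with the poly-A spikes centred). MT2, a metallothionein, fell by 3.08 ± 0.18. MS, malate synthase of the glyoxylate cycle, which turns stored fat into sugar in seedlings, gave 10.66 and 10.55 at R8 and 3.96, 3.87 and 4.36 at R6 (log2 fold change 6.54 ± 0.69, adjusted p = 5.2e-06). Its partner enzyme isocitrate lyase (ICL1) gave 1.15 and 1.23 at R8 and 1.91, 1.41 and 1.67 at R6, with 3.11 and 2.94 at R7. In stressed seeds its means were 5.59 at R8 and 6.72 at R6. Of the enzymes particular to that cycle, malate synthase thus rose and isocitrate lyase was not called (log2 fold change -0.47 ± 0.22). The non-stressed means of ICL1, 1.19 at R8 and 1.66 at R6, were little above the background of 1.13. PEPC7, a phosphoenolpyruvate carboxylase, fell by 3.47 ± 0.12. ADH2, an alcohol dehydrogenase, gave 5.94 and 6.10 at R8 and 10.77, 10.68 and 10.73 at R6 (log2 fold change -4.70 ± 0.11).

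Of 13 aquaporins, which conduct water through membranes, 5 fell and 8 were not called. PIP2-1 gave 4.58 and 4.74 at R8 and 9.11, 9.08 and 9.22 at R6, PIP2-8 fell by 4.19 ± 0.12, and PIP1-7 was level at 11.39 and 11.29 at R8 and 11.24, 11.33 and 11.33 at R6. The tubulin TUBB3, of the cytoskeleton, fell by 5.20 ± 0.15, in a list with 4 of 5 lower. In nitrogen metabolism EU3, an accessory protein of urease, gave 1.57 and 1.21 at R8 and 10.07, 10.13 and 10.18 at R6 (log2 fold change -8.74 ± 0.16). The cytosolic glutamine synthetase genes were opposed, with GS1GAMMA2 at least 43.6-fold lower and GS1alpha higher by 2.15 ± 0.26. Sulfur assimilation had calls in both directions. SIR, sulfite reductase, fell by 3.40 ± 0.09, while SAT1, a serine acetyltransferase of cysteine synthesis, rose by 4.07 ± 0.19, with 8.71 and 8.65 at R8 and 4.55, 4.58 and 4.70 at R6.

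Tocopherol and carotenoid genes were called in both directions. HPT1, which commits homogentisate to tocopherol, was at least 85.7-fold lower, with 0.71 and 0.59 at R8 against 7.50, 7.57 and 7.59 at R6. BCH5, a carotene hydroxylase, had 8.95 and 8.25 at R8 and 3.66, 3.54 and 3.59 at R6 (log2 fold change 5.0 ± 0.20). Of 7 genes of ubiquitin and autophagy 3 were higher and 1 lower. ATG3A, an enzyme of autophagosome formation, rose by 1.78 ± 0.09 and remained called with the poly-A spikes centred, whereas ATG6 (1.57) and the proteasome subunit PAA1 (1.13) did not. The other probe set of PAA1 was not called, at 0.48. VPE2, a vacuolar processing enzyme, fell by 3.15 ± 0.18. Of 6 translation genes 1 was lower, the elongation factor gene EF1BGAMMA4 (-2.06 ± 0.11), and CDC48 and histone H4 were not called, with log2 fold changes of 0.29 and 0.64. ZTL1, a clock-associated light receptor, rose by 1.98 ± 0.13. NOD33, a gene named for nodules, lay at 0.63 and 0.35 at R8, against 7.09, 6.65 and 6.05 at R6. SALI5-4A, an aluminium-induced gene, was at least 165-fold lower.

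Several of the largest changes belong to probe sets that pair with no gene. The one with the largest rise among these gave 9.41 and 9.07 at R8 and 1.93, 1.99 and 1.92 at R6. Another gave 9.13 and 9.34 at R8 and 1.88, 2.08 and 2.03 at R6, and a further one was at least 75.5-fold higher. The one with the largest fall had 0.25 and 0.38 at R8 against 9.99, 9.35 and 8.97 at R6 and was at least 316-fold lower. Nothing in the tables used here says what these transcripts are.

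The 2 arrays at R7 give a description of the signals between the stages. Between R6 and R7, 49.9% of probe sets were called, with 5128 higher (26.7%) and 4455 lower (23.2%) at R7. Between R7 and R8, 31.5% were called, with 2660 higher (13.9%) and 3391 lower (17.7%) at R8. The 2 comparisons share the R7 arrays. The study describes R7 seeds as mixed in chlorophyll content, and took this to reflect somewhat different stages. For this reason and after a principal component analysis, it left R7 out of its further array analysis to avoid ambiguous results. Ribosomal RNA probe sets had a median signal of 11.01 (R6), 6.71 (R7) and 10.98 (R8). The excess of the 3′ over the 5′ signal had means of 2.34 (R6), 3.72 (R7) and 1.75 (R8) for actin, and of 3.38, 6.24 and 4.12 for the sucrose-binding protein control. The part of these differences in the R7 results was not tested. In these arrays several reserve transcripts fell mostly between R7 and R8. BG7S-2 had means of 11.61 (R6), 11.74 (R7) and 4.86 (R8), and BBI had 12.20, 11.79 and 5.52 in the same order. MIPS, LOX1.1, KTI3 and ADH2 changed by -0.70, -0.89, -1.15 and -0.50 on the log2 scale before R7 and by -4.90, -3.71, -4.93 and -4.21 after it. SALI5-4A stood at 9.16 and 8.83 at R7 and fell after it. A1 and CG-1 lost more before R7 (5.18 and 3.63 log2 units) than after it (2.39 and 0.90).

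Other transcripts had already fallen in the R7 arrays. GASA12 had a mean of 10.15 (R6), array values of 1.85 and 1.08 (R7) and a mean of 0.34 (R8). CAB3 had 4.13 and 4.10 and PETC 3.02 and 2.69 at R7, close to their R8 values, and ADR11 lost 7.95 log2 units before R7. LEC1-A (0.59 and 0.51) and SCB1 (0.39 and 0.57) were already in the background at R7. MFT fell by 5.57 before R7, to 5.45 and 4.91, and to the background after it. The stay-green gene SGR1 had means of 6.18 (R6), 8.23 (R7) and 7.25 (R8), SGR2 had 6.17, 7.92 and 7.65, and SGR had 5.32, 6.27 and 6.94. From R7 to R8 none of the 3 moved by 2-fold (-0.98, -0.26 and 0.66 on the log2 scale). Histone H4, not called between R6 and R8, stood at 6.44 to 7.01 at R6, at 9.71 and 9.60 at R7 and at 7.19 and 7.50 at R8. Among the rising genes MS, CYP71A9 and BCH5 gained 5.76, 6.08 and 4.60 log2 units before R7. HSP22.5 rose after it, with 0.37 and 0.95 at R7, and HSP17.5-E gained 4.30 before R7 and 3.25 after it.

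**Figure D4:**
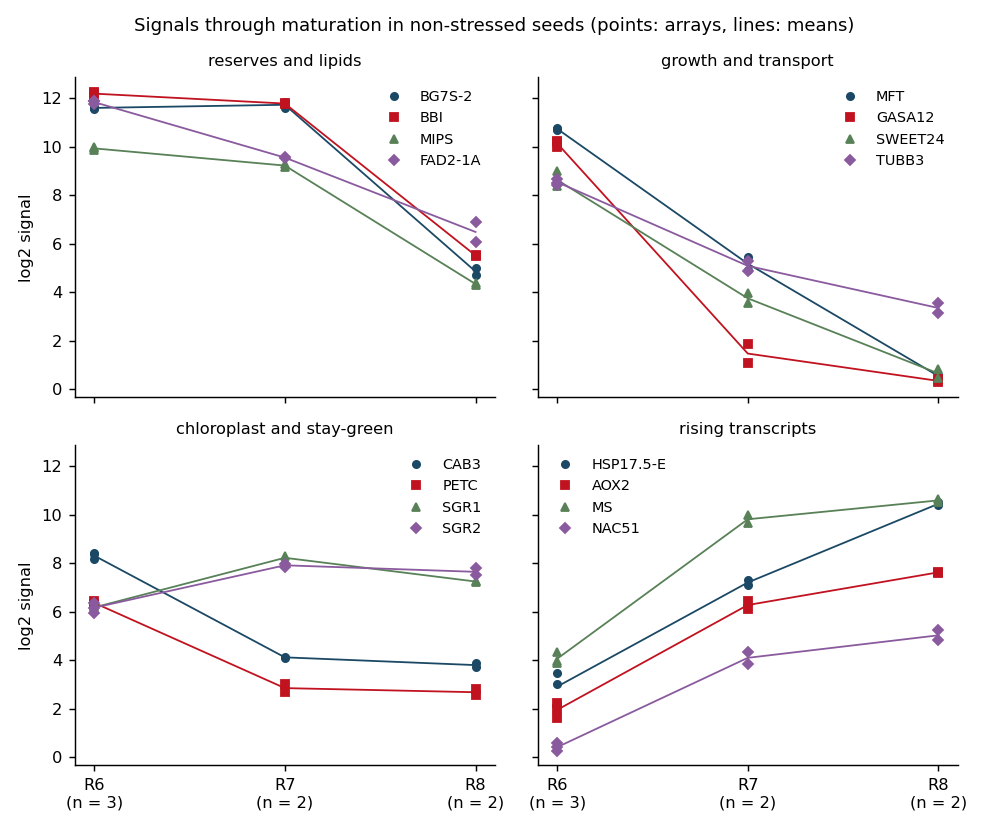
Log2 signal (vertical axis) of 16 genes in non-stressed seeds at R6 (n = 3 arrays), R7 (n = 2) and R8 (n = 2), with arrays as points and stage means as lines. BG7S-2 and BBI hold their level to R7 (11.74 and 11.79) and drop by R8, GASA12, CAB3 and PETC are low from R7 onward, SGR1 and SGR2 are higher at R7 (means 8.23 and 7.92) and at R8 (7.25 and 7.65) than at R6, and HSP17.5-E, AOX2, MS and NAC51 climb at both steps.

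The same stages in stressed plants show which of these changes differed with the environment. Under stress 54.4% of probe sets were called between R8 and R6, 27.3% higher and 27.1% lower. The difference between the changes, non-stressed minus stressed, was tested as an interaction and was called for 20.3% of probe sets, 1697 higher (8.84%) and 2190 lower (11.4%). Leaving out the third stressed R6 array brought these counts to 2457 and 2397. Where a gene reached the background at R8, the size of the difference is limited by that floor. The median signal of ribosomal RNA probe sets was 9.74 in stressed R8 and 10.74 in stressed R6 seeds. In non-stressed seeds it was 10.98 at R8 and 11.01 at R6. The part of RNA quality in the differences between environments was not tested.

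Many reserve genes fell more without stress. In the storage protein list the difference was called for 7 of 11 genes, each negative. Among 9 protease inhibitors 5 differences were called negative and 2 positive, BBI-1 and BBI-2. BBI-2 changed by 0.30 in non-stressed and -1.88 in stressed seeds. BG7S-2 changed by -6.74 in non-stressed and -2.24 in stressed seeds, a difference of -4.50 ± 0.16 (adjusted p = 2.1e-07). Its R8 mean was 4.86 in non-stressed and 9.20 in stressed seeds, and its R6 mean was 11.61 in non-stressed and 11.44 in stressed seeds. BBI changed by -6.68 and -2.42 (difference -4.26 ± 0.20), and GY5 by -5.21 and -1.33 (difference -3.89 ± 0.23). GY1 ended at 10.39 in non-stressed and 12.91 in stressed R8 seeds (difference of changes -2.49 ± 0.44, and -3.27 or -1.71 without the first or the second non-stressed R8 array). CG-BETA-1 changed by -2.47 and -2.19, with a difference of -0.28 ± 0.22 (adjusted p = 0.331). The largest difference among the named genes in the text was that of SFERH-2, with changes of -7.73 in non-stressed and -2.36 in stressed seeds (difference -5.37 ± 0.36). For the seed coat gene SCB1 the difference of -3.74 ± 0.47 lay at R6, where the means were 5.72 in non-stressed and 1.84 in stressed seeds, while those at R8 were 0.43 in non-stressed and 0.30 in stressed seeds. EXP4, IFR1 and LAR1 had the same form, with stressed R6 means of 0.99, 2.34 and 0.25 and stressed R8 means at the background.

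Other genes rose more without stress. GSTU42 rose by 5.33 in non-stressed and 2.09 in stressed seeds (difference 3.24 ± 0.30, adjusted p = 3.0e-05), with an R8 mean of 7.39 in non-stressed and 7.58 in stressed seeds and an R6 mean of 2.06 in non-stressed and 5.50 in stressed seeds. CYP93A1 rose by 4.08, against 0.69 in stressed seeds, and DREB2A2 by 4.11, against 2.20, with R6 means of 5.71 in non-stressed and 8.59 in stressed seeds. NAC12 changed by 4.32 in non-stressed and 1.07 in stressed seeds, but its difference of 3.25 ± 0.97 was lost when either R8 non-stressed array or the third R6 non-stressed array was left out. PIP2-13 went in different directions, not called at -0.57 in non-stressed seeds and higher by 2.32 in stressed ones (difference -2.89 ± 0.16, adjusted p = 1.3e-06). For HSP17.5-E, HSP90A1, AOX2 and MS the difference was not called, with standard errors from 0.34 to 1.63, and it reached the limit for HSP90A1 (-1.96) and MS (2.95) without the third stressed R6 array. LOX3 and PIP1-7 were not called in either environment, with changes of -0.06 and 0.04 in non-stressed seeds and -0.09 and 0.00 in stressed seeds. SGR1 rose by 1.07 in non-stressed and 1.76 in stressed seeds, a difference of -0.69 ± 0.18 that is below the 2-fold limit.

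**Figure D5:**
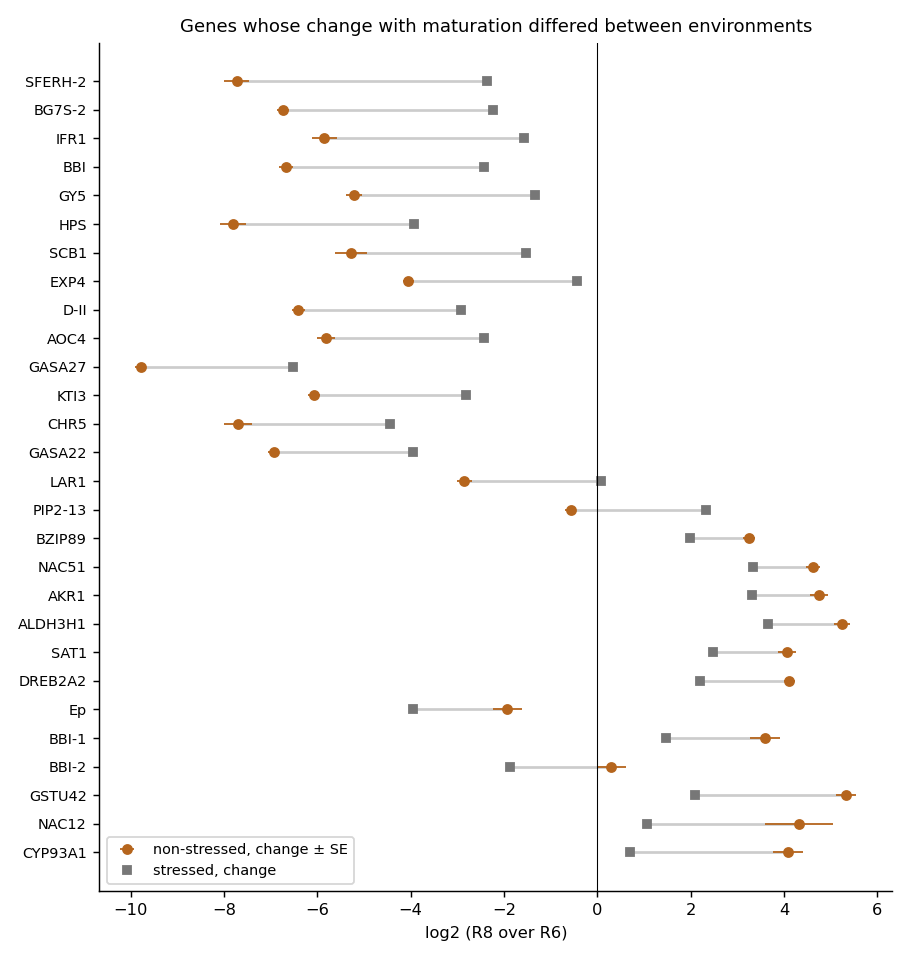
Log2 fold change of R8 over R6 (horizontal axis) in non-stressed seeds (orange circles, bars of 1 SE) and in stressed seeds (grey squares) for 28 genes named in the text whose changes differed, the 16 with the most negative and the 12 with the most positive difference. The non-stressed circle lies further left for SFERH-2, BG7S-2, BBI and GY5, and further right for GSTU42, NAC12 and CYP93A1; Ep fell less without stress (-1.93, against -3.96).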

How the data were processed

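RNA of whole seeds was hybridized to Affymetrix Soybean Genome arrays, 1 per sample. The deposited values are log2 signals that the authors background-corrected, normalized and summarised per probe set (RMA in the submitters' processing notes, ArrayAnalysis.org in the study's methods, neither version being stated in the sources used here). The methods state 18 arrays, and 16 were analysed. They state at least 15 seeds per sample, and the labels state 50. The number of arrays limits the precision.

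Probe sets were named through the array's annotation where it pairs them with 1 gene (5751 of 19194 kept), and a gene was read from its brightest probe set on average. One mean per condition was fitted with limma 3.58.1 in R 4.3.3 to the 11 R6 and R8 arrays, and to all 16 for R7, with two-sided p-values adjusted by Benjamini-Hochberg over all probe sets kept. Values after ± are standard errors. In simulated data 200 of 19194 probe sets were changed by 1.5 on the log2 scale, with the same spread in every group. Of these changes 83.5% were found, with 2 false calls among the unchanged probe sets. In the real data 62.8% were called, so these figures are no error rate for the calls made here.

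Genes were named if the paper names them, if they were among the 12 largest rises or falls of named genes, or if they were among the up to 4 largest calls of a list, with the 5 largest rises and falls of probe sets. The genes, lists and comparisons were chosen with earlier results of these data known, some lists and genes (GY1, CG-BETA-1, KTI3, BBI-1, BBI-2, SBP2, PM30, MAT1, FAD2-2, GOLS, PSAD, HEMB, HEMG, GSA1, EXP1, LOX3, COI1, AOS1, GAI1, CAT4, SB100, ICL1, BZIP89, PIP1-7, PIP2-13, IF7MaT and GS1alpha) after their values were seen. Lists made after the tables were opened include alternative oxidases, galactolipids, sulfur assimilation, tocopherols and carotenoids, and protein disulfide isomerases. Some members of the storage protein, LEA, inositol, aquaporin, metal-binding and ubiquitin lists were also added then. The alternatives were other filters, scalings, sets of arrays, array weights, moderation settings, a fold test, probe set choices, the replicate block and leaving out each array. Probe sets of other organisms served only for the background.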

Additional observations from a re-analysis of the deposited data

Results flagged for a closer look

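For the genes below the change from R6 to R8 differed between non-stressed and stressed seeds by the interaction term of limma, at an adjusted p of at most 0.05 and a difference of at least 1 on the log2 scale, limits that 20.3% of all probe sets passed. Each value is the change in non-stressed seeds minus the change in stressed seeds, as a log2 difference. A negative value means that the change without stress was more negative or less positive than under stress.

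Among storage proteins it was -4.50 for BG7S-2, -3.89 for GY5, -2.70 for A1, -2.49 for GY1 and -1.98 for CG-1. Without the first or the second non-stressed R8 array it was -3.27 or -1.71 for GY1. Among protease inhibitors it was -4.26 for BBI, -3.49 for D-II, -3.26 for KTI3, -1.71 for KTI-2 and 2.10 for BBI-1, which rose by 3.59 in non-stressed and 1.48 in stressed seeds. For the inhibitor BBI-2 it was 2.18. Oil genes had -2.23 for FAD3B, -1.81 for FAD2-1A and -1.58 for ACCB-2. Sugar and inositol genes had -2.51 for MIPS, -2.50 for SWEET24 and -2.31 for SWEET13.

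In the seed coat the difference was -3.87 for HPS, -3.74 for SCB1, -2.92 for LAR1 and 2.03 for Ep, and in the cell wall -3.61 for EXP4 and 1.07 for EXP1. Chloroplast genes had -2.38 for ELIP, -1.49 for CAB3, -1.32 for PETC and -1.32 for RCAALPHA. ELIP fell by 1.89 in non-stressed seeds, while its stressed means were 2.15 at R8 and 1.66 at R6. Flavonoid and P450 genes had -4.27 for IFR1, -3.25 for CHR5, -1.65 for F3H, -1.36 for CYP72A67 and 3.39 for CYP93A1.

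Hormone and germination genes had -3.38 for AOC4, -3.26 for GASA27, -2.99 for GASA22, -2.70 for ACS1, -2.23 for MFT, -1.39 for LOX1.1, -1.32 for AOC3, -1.16 for ADR11, 1.18 for TIR1C and 1.03 for SPK-4. Transcription factors had -2.76 for MYB172, -1.92 for ERF6, -1.20 for ERF5, 3.25 for NAC12, 1.92 for DREB2A2, 1.29 for NAC51, 1.26 for BZIP89, 1.20 for HSF-14, 1.11 for HSF-03 and 1.03 for HSF-15. NAC12 had 4.19 without stressed R6 array 3, and its adjusted p missed the threshold without non-stressed R6 array 3 or either non-stressed R8 array. ERF5 rose by 2.98 in non-stressed and 4.18 in stressed seeds, and the call of its difference was lost under 9 of 15 alternatives, the replicate block among them.

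Redox, metal and chaperone genes had -5.37 for SFERH-2, -1.94 for BIP4, -1.56 for PRX3, -1.32 for MT2, -1.12 for SODB2, -1.05 for DHAR4, 3.24 for GSTU42, 1.58 for ALDH3H1 and 1.43 for AKR1. SFERH-2 had -4.74 without the first and -6.00 without the second non-stressed R8 array. Other metabolic and transport genes had -2.89 for PIP2-13, -2.78 for ADH2, -2.05 for EU3, -2.01 for NOD33, -1.76 for GS1GAMMA2, -1.71 for PIP2-8, -1.43 for PEPC7, -1.11 for PIP2-1 and 1.60 for SAT1.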

How the results depend on the processing

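Of the 145 genes named, 130 had the same call (higher, lower or not called) for their change from R6 to R8 under each of up to 26 alternatives. Centring on the poly-A spikes, chosen after the data were seen, brought the probe sets called higher to 4118. It also ended the calls of PM39, MAT1, SGR1, SGR2, EXP1, AOS1, AOX3, SFERH-4, DGD1, MGD1, DGD2, ATG6 and PAA1, all rises of under 2 on the log2 scale. A limit of 5 in place of 3 on the mean signal left 12023 probe sets, with 4108 higher and 3503 lower, since fewer were tested. HSF-01 was 2.33 higher with the probe set of largest spread, and PSAD was called lower with either other choice of probe set. Without any filter 7186 were higher and 7359 lower.

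Leaving out 1 array gave 6186 to 6287 higher and 5732 to 5840 lower between R8 and R6. For the difference between environments it gave 1561 to 2457 higher and 2119 to 2397 lower, and for R7 against R6, where each of the 7 non-stressed arrays was left out (those of R6 and R8 by a choice made after the data were seen), 4883 to 5321 higher and 4382 to 4555 lower. For R8 against R7 it gave 1971 to 3116 higher and 3195 to 3597 lower. With 1 array left in a group, that array was taken to vary like the other groups. The difference between environments was lost under at least 1 alternative for EXP1, SPK-4, NAC12, ERF5, HSF-15, SODB2 and DHAR4. Centring on the poly-A or hybridization spikes was not run for this difference. From R6 to R8 the poly-A spikes changed by 0.42 in non-stressed and by 0.06 in stressed seeds. Whether positive differences not far above 1 hold under that centring was therefore not tested.

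The replicate numbers do not show that samples are paired. Deviations of R8 and R6 arrays with the same number correlated at 0.141 and 0.0877 over the 2 numbers they share. The deviations of 2 R8 arrays from their mean are exact opposites, so these values are not separate checks and cannot decide on pairing. With the replicate number as a block 6198 probe sets were higher and 5795 lower between R8 and R6, and for the difference between environments 1606 and 2163. The block ended the call of that difference for SPK-4 and ERF5. Centring on ribosomal protein and proteasome genes was not run, since fewer than 10 of them had a name in the tables. For signals at the background at R8, R7 or R6 only a bound of the fold was measured.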
